A study of Homo sapiens with 2 samples.

Results

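The integrated stress response was followed through 10 of its genes in HEK293 cells lacking LARP7, by taking every GENCODE v29 transcript of ATF4, ATF5, DDIT3, TRIB3, ASNS, SESN2, CEBPB, CEBPG, EIF4EBP1 and EIF2AK4. They are 10 of 57894 genes in the tables and hold 52 of the 197318 transcripts that matched the annotation. HEK293 is a line derived from human embryonic kidney. The groups were LARP7 knockout cells of a single clone, named 1-11, with 2 libraries, and parental HEK293 cells with 2 libraries, both grown in the same serum-containing medium without added treatment. LARP7 is a La-related protein that binds 7SK, a small nuclear RNA known for keeping P-TEFb, a kinase of transcription elongation, inactive. Total RNA was sequenced, and the question of the study was how loss of LARP7 alters expression and splicing. The clone and the loss of LARP7 cannot be told apart. No label says whether replicate libraries were grown and extracted apart, so errors measure the spread between libraries, which may be technical.

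Cells that run short of amino acids, or that accumulate unfolded proteins, phosphorylate the translation factor eIF2. General translation then falls, while the mRNA of the transcription factor ATF4 is translated more, because of short upstream reading frames in its leader. ATF4 pairs with C/EBP factors on composite DNA elements and switches on genes of amino acid synthesis, amino acid import and tRNA charging, asparagine synthetase among the best known.

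The knockout libraries held 16838501 and 16218587 estimated reads, and the parental libraries 18483220 and 12851942. LARP7 transcripts were at 36.1 and 31.9 CPM (reads scaled to a common library size) in the knockout and at 59.8 and 46.5 CPM in parental cells. The deposited values do not show where the gene was cut. 7SK itself was at 169 and 205 CPM in the knockout and at 5572 and 5481 CPM in parental cells. All 7 markers of HEK293 cells were detected, with VIM at 396 to 521 CPM, and the neurofilament gene NEFM was lower in the knockout, at 7.76 and 8.58 CPM, than in parental cells, at 49.4 and 73.6 CPM. Meanwhile 8 of 9 markers of other cell types stayed at or below 0.769 CPM. The exception was the collagen gene COL1A1, at 5.68 to 7.30 CPM. The parental replicates differed more than the knockout replicates, with a chi-square per degree of freedom of 8.74 for the knockout pair and 30.67 for the parental pair. Fragments were 232.9 and 225.8 bases long by effective length in the knockout and 217.0 and 206.7 bases in parental cells, parental replicate 2 having the shortest.

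The 10 genes were selected on their read counts and TPM in these libraries. This knockout-parental contrast and the gap between the parental replicates were then in view. Their gene-level differences are therefore given as a description, and calls on them, from fits over all genes, are not independent support. Levels are CPM, estimated reads per gene scaled with TMM factors. Of the 10, 8 had a negative log2 fold change (knockout over parental) and 2 a positive one. Their median was -0.45, against 0.002 over the 18484 genes tested, and it was -0.22 without parental replicate 2, -0.68 without parental replicate 1 and -0.014 in deposited TPM. ASNS alone passed the threshold over all genes (edgeR, adjusted p under 0.05), where 0.833% of all genes passed, 0.33% as higher and 0.503% as lower in the knockout. DESeq2 called 4 of the 10 (ASNS, ATF4, EIF4EBP1 and SESN2), all lower, against 1.49% of all genes called lower. With limma voom ASNS alone was called, against 0.498% of all genes called lower. Both knockout libraries lay below both parental libraries for ATF4, ASNS, SESN2 and EIF4EBP1, which is 4 of 10 against 22.7% of all genes. For TRIB3 alone both lay above, which is 1 of 10 against 23.5% of all genes. The plot of levels by library shows each gene. In bulk RNA, fewer cells with a transcript and less of it per cell cannot be told apart.

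**Figure D1:**
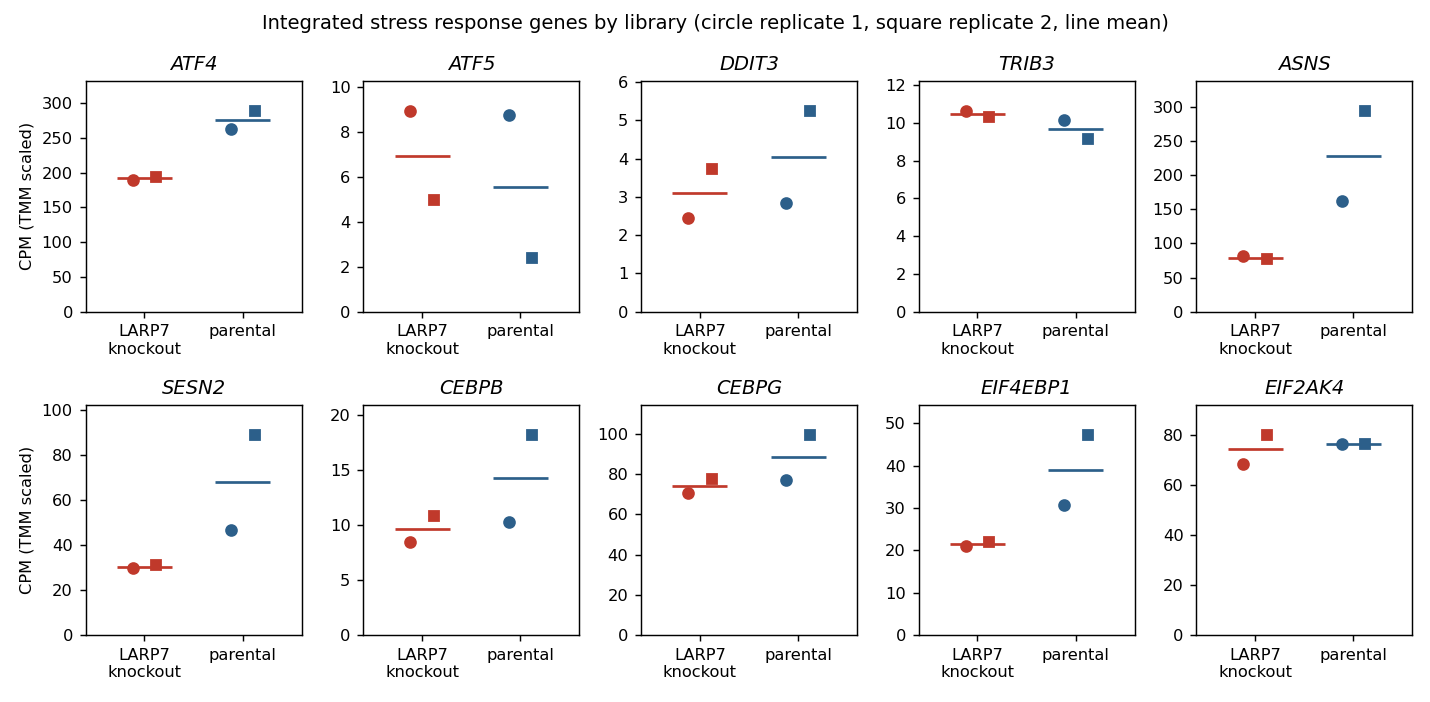
Level of each of the 10 genes in every library (CPM, linear axes from 0 that differ between panels); circles are replicate 1, squares replicate 2 and lines group means. ATF4, ASNS, SESN2 and EIF4EBP1 separate the knockout from the parental libraries, and parental replicate 2 lies well above parental replicate 1 for ASNS and SESN2.

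The sensor in the set is EIF2AK4 (chr15:39934146-40035591, GRCh38), which encodes GCN2, the eIF2 kinase that responds to uncharged tRNA and stalled ribosomes. It had 68.3 and 80.0 CPM in the knockout and 76.4 and 76.1 CPM in parental cells. The parental values lie between the knockout values, and the log2 fold change was -0.04 (SE 0.13). It was 0.07 without knockout replicate 1 and 0.37 on the deposited TPM scale.

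ATF4, the central transcription factor (chr22:39519695-39522685, GRCh38), had 189.4 and 194.2 CPM in the knockout and 263.0 and 288.2 CPM in parental cells. Its means were 191.8 ± 3.39 CPM in the knockout and 275.6 ± 17.8 CPM in parental cells (SD, n = 2 each). The groups do not overlap and the replicates of each lie close together, which sets ATF4 apart from ASNS, SESN2 and EIF4EBP1 with their spread parental values. The log2 fold change was -0.52 (SE 0.12), with -0.46 without parental replicate 2 and -0.59 without parental replicate 1. Reads of its processed pseudogene ATF4P3 were counted apart, at 29.03 and 49.11 in the knockout and 56.0 and 90.2 in parental cells, against 3245 to 4628 for ATF4 across the 4 libraries.

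ATF5, a relative of ATF4 with the same kind of leader, had 8.93 and 4.97 CPM in the knockout and 8.75 and 2.38 CPM in parental cells. Replicate 1 was the higher library in both groups, and the groups overlap. The log2 fold change of 0.29 (SE 0.54) turned to -0.33 without parental replicate 2 and reached 1.54 without parental replicate 1. ATF5 lies across NUP62 on the opposite strand, a gene with 1114 to 1989 reads, against 29.7 to 154 for ATF5. The strand setting is not given in the sources used here, so reads of the pair cannot be told apart.

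DDIT3, which encodes CHOP, the C/EBP-family factor linked to cell death under lasting stress, had the lowest mean CPM of the 10 in both groups. It had 2.45 and 3.73 CPM in the knockout and 2.84 and 5.24 CPM in parental cells, from 41.7 to 65.7 reads per library. The groups overlap, and the log2 fold change of -0.37 (SE 0.43) was 0.12 without parental replicate 2. DDIT3 also shares its locus with MARS on the opposite strand, which had 2248 to 2944 reads.

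CEBPB and CEBPG encode C/EBP proteins that pair with ATF4 on its target elements. CEBPB had 8.46 and 10.8 CPM in the knockout and 10.3 and 18.2 CPM in parental cells. Its parental replicate 1 lies between the knockout libraries, and the log2 fold change of -0.55 (SE 0.30) shrank to -0.10 without parental replicate 2. CEBPG had 70.5 and 77.8 CPM in the knockout and 77.0 and 99.5 CPM in parental cells. The groups overlap narrowly, and the log2 fold change of -0.25 (SE 0.15) was -0.06 without parental replicate 2 and 0.17 on the deposited TPM scale.

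ASNS (chr7:97852118-97872542) encodes asparagine synthetase, which makes asparagine from aspartate and glutamine. It had 81.8 and 76.7 CPM in the knockout and 162.6 and 293.8 CPM in parental cells. The knockout libraries lie within a few CPM of each other, and the parental libraries are 1.81-fold apart. Means were 79.2 ± 3.60 CPM in the knockout and 228 ± 92.7 CPM in parental cells (SD, n = 2 each), a log2 fold change of -1.52 (SE 0.24). Parental replicate 2 carries part of its size, since the log2 fold change was -1.04 without that library and -1.89 without parental replicate 1. ASNS did not pass the threshold with an offset for effective transcript length (-1.47). Its pseudogene ASNSP1 had 2 and 0 reads in the knockout and 14 and 33 reads in parental cells, against 1296 to 3700 reads for ASNS.

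SESN2 (chr1:28259527-28282491) encodes sestrin 2, a leucine-binding protein that restrains mTORC1. It had 29.7 and 31.4 CPM in the knockout and 46.9 and 89.0 CPM in parental cells. The pattern is that of ASNS: close knockout values, no overlap, and parental libraries 1.90-fold apart. The log2 fold change was -1.15 (SE 0.26), with -0.62 without parental replicate 2 and -1.55 without parental replicate 1.

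EIF4EBP1 encodes 4E-BP1, which binds the cap-binding protein eIF4E and holds back translation. It had 21.1 and 21.9 CPM in the knockout and 30.7 and 47.2 CPM in parental cells. The groups do not overlap, and the log2 fold change was -0.85 (SE 0.21), or -0.52 without parental replicate 2. TRIB3, a pseudokinase induced by ATF4 that in turn binds ATF4, had 10.6 and 10.3 CPM in the knockout and 10.2 and 9.13 CPM in parental cells. These values nearly touch, and the log2 fold change was 0.11 (SE 0.22). TRIB3 and ATF5 were the only genes of the set with a positive log2 fold change, in both cases smaller than its SE. That of TRIB3 was positive in all 13 alternatives, which reuse the same libraries.

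**Figure D2:**
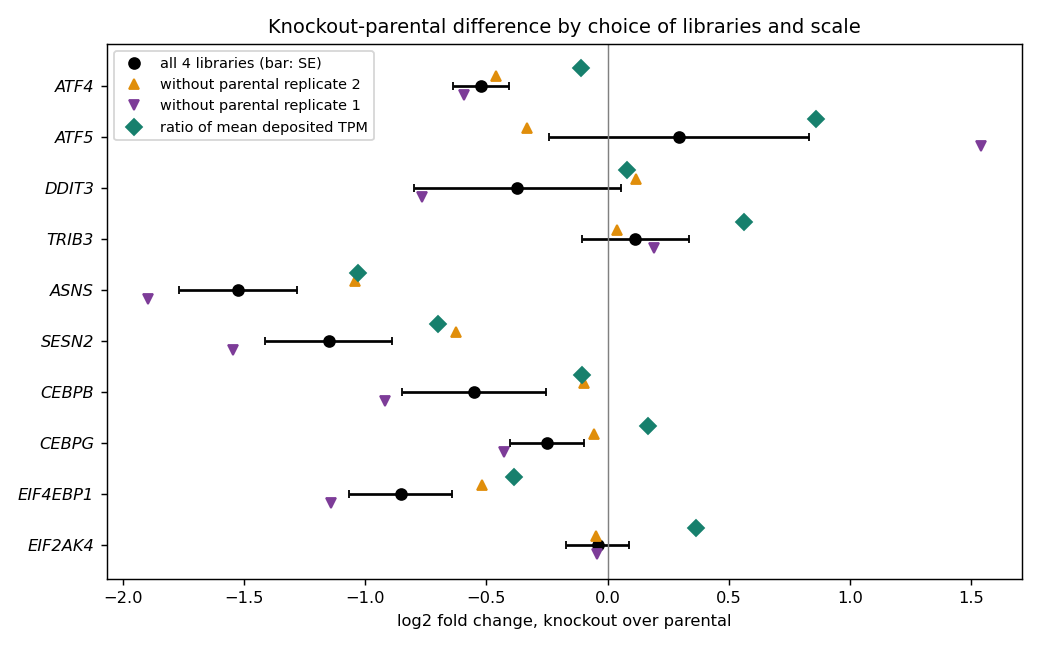
Log2 fold change (knockout over parental) of the 10 genes, from all 4 libraries with the SE as a bar, without either parental replicate, and as the ratio of mean deposited TPM. ASNS, SESN2, EIF4EBP1, ATF4 and CEBPB stay below 0 in all of these, CEBPB narrowly without parental replicate 2 (-0.10). TRIB3 stays above 0, while ATF5, DDIT3, CEBPG and EIF2AK4 have points on both sides of 0.

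Parental replicate 2 was at least 1.5-fold above parental replicate 1 for 5 of the 10 genes (DDIT3, ASNS, SESN2, CEBPB and EIF4EBP1), against 17.4% of all genes tested. ATF5 moved the other way, with replicate 2 at 0.272 of replicate 1. A parental gap of at least 1.5-fold in that direction was found in 1826 of the 18484 genes tested. The knockout replicates were at least 1.5-fold apart for ATF5 and DDIT3, which is 2 of 10 against 17.1% of all genes. The 17.1% counts both directions and the 17.4% only replicate 2 above replicate 1, so these shares are not alike. Parental replicate 2 was also the shallowest library and had the shortest fragments. Small RNA genes took 1.11 and 1.31% of the reads in the knockout and 1.81 and 3.20% in parental cells, the last value being that of parental replicate 2. The part of these library properties in the gap was not tested.

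Per unit of length the order of the genes can be read from the deposited TPM. In the knockout ATF4 led with 131.7 ± 0.146 TPM, followed by ASNS with 43.9 ± 2.55 and EIF4EBP1 with 31.6 ± 1.24 TPM (SD, n = 2). CEBPG with 17.1 ± 0.902 and EIF2AK4 with 16.1 ± 2.45 TPM did not separate, and SESN2 followed with 7.96 ± 0.138 TPM. CEBPB, ATF5, TRIB3 and DDIT3 had means of 3.17 to 4.69 TPM in the knockout, and ATF5 spread over the whole group. In parental cells ATF4 also led, with 142.2 ± 13.6 TPM, followed by ASNS with 89.6 ± 23.1 and EIF4EBP1 with 41.3 ± 4.43 TPM. CEBPG, SESN2 and EIF2AK4 came next with means of 12.5 to 15.2 TPM, and SESN2 overlapped both of the others. CEBPB, DDIT3, TRIB3 and ATF5 had means of 2.35 to 5.05 TPM there.

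Log2 ratios of all the genes were shifted upward in deposited TPM against CPM, and some changed sign. The differences of ATF4, ASNS, SESN2, CEBPB and EIF4EBP1 thus became smaller. Those of ATF5 (0.86), TRIB3 (0.56) and EIF2AK4 (0.37) became larger. ATF4 had 131.8 and 131.6 TPM in the knockout and 151.8 and 132.5 TPM in parental cells, so on this scale parental replicate 2 almost meets the knockout. The log2 ratio of its means was -0.11 in deposited TPM. TPM of small RNA genes filled 32.0 and 36.3% of the total in the knockout and 37.2 and 53.4% in parental cells, which leaves less of the fixed total for all other genes in parental replicate 2. Rescaled to the total of protein-coding genes, the log2 ratio was -0.38 for ATF4, -1.35 for ASNS, -1.02 for SESN2 and -0.69 for EIF4EBP1. CEBPG, at 16.4 and 17.7 TPM in the knockout and 15.0 and 15.5 TPM in parental cells, was higher in the knockout on the deposited scale and overlapped after rescaling, with a log2 ratio of -0.12.

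Transcript shares within a gene were not used to choose the genes and were tested. Of 9517 genes with more than 1 usable transcript, 65 changed usage between knockout and parental cells (edgeR diffSpliceDGE, Simes, adjusted p under 0.05), which is 0.683%. That count was 0 without knockout replicate 1 or 2, 2 without parental replicate 2 and 88 without parental replicate 1. Among the 6 of the 10 genes that could be tested (ASNS, ATF4, CEBPG, DDIT3, EIF2AK4 and EIF4EBP1), 0 passed. None had an unadjusted p under 0.05, the lowest being 0.838 for CEBPG, and the gene-level F test also called 0. With 0.683% of all genes called, 0 of 6 cannot tell unchanged usage from a change that the test missed. SESN2 and CEBPB have a single transcript, and ATF5 and TRIB3 had fewer than 2 transcripts past the filter.

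ASNS reads fell mostly on the protein-coding ASNS-202, which held 69.4 and 71.3% of the gene's TPM in the knockout and 79.5 and 76.3% in parental cells. Both knockout shares are lower than both parental shares. The usage test compared only the 2 ASNS transcripts past the filter, on reads, and did not pass. The difference in shares over all ASNS transcripts was not itself tested. The nonsense-mediated-decay transcript ASNS-213 had 6.97% in knockout replicate 1 and no reads in knockout replicate 2, against 0.218 and 0.255% in parental cells. ATF4-202 held 93.5 and 94.9% of ATF4 TPM in the knockout and 94.5 and 96.7% in parental cells, within a few percent of each other in all 4 libraries.

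For EIF4EBP1, EIF4EBP1-202, annotated without a coding sequence, took 72.2 and 62.7% of the TPM in the knockout and 71.0 and 65.1% in parental cells. The protein-coding transcript was thus the minority in all 4 libraries. CEBPG-202 held 84.4 and 91.9% in the knockout and 86.1 and 96.9% in parental cells, and EIF2AK4-201 held 66.6 and 55.2% in the knockout and 60.2 and 58.8% in parental cells. DDIT3-201 held 21.8 and 47.4% in the knockout and 7.03 and 59.0% in parental cells, and DDIT3-206 held most of the rest. Replicate 2 had the larger DDIT3-201 share in both groups, and this transcript had 2.76 to 33.9 reads per library. ATF5-201 ranged from 43.2 to 96.0% over the 4 libraries.

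**Figure D3:**
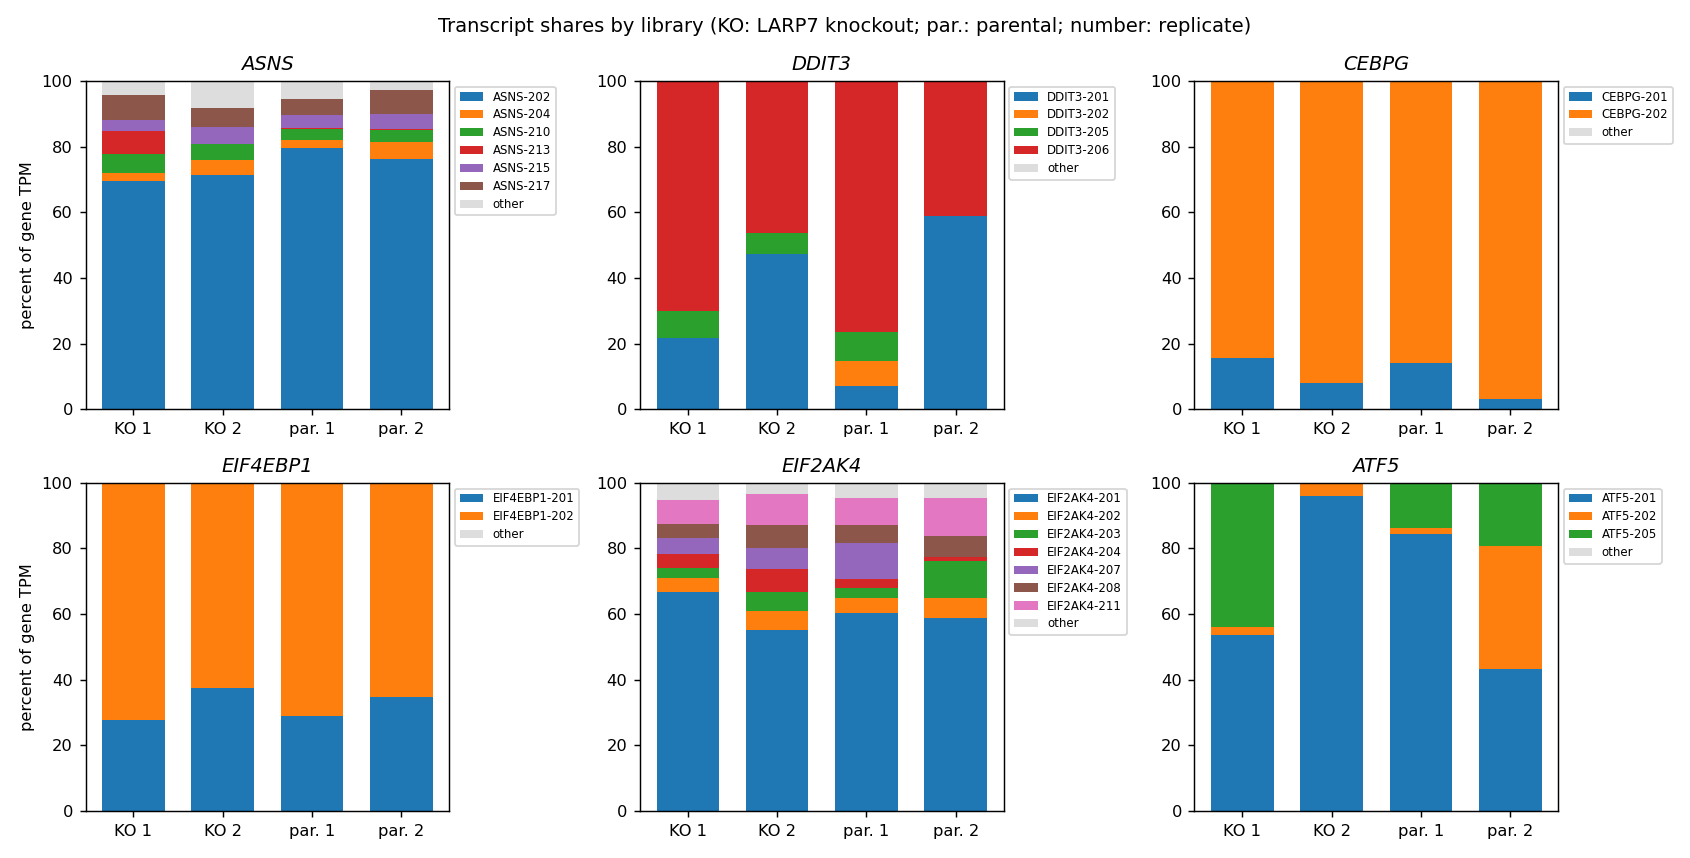
Share of each gene's TPM held by its transcripts in every library (percent, stacked to 100), with transcripts that reach 5% in no library pooled as other. ASNS is dominated by ASNS-202 in all 4 libraries, while DDIT3 and ATF5, with few reads, vary between replicates of the same group.

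The leaders of the main transcripts were read from the GENCODE sequences. ATF4-202 has a leader of 280 bases with 3 upstream ATGs, opening frames of 1, 3 and 59 codons, and the last overlaps the coding sequence. ATF5-201 has the same arrangement without the first: frames of 3 and 59 codons in a leader of 377 bases, the longer overlapping the coding sequence. This layout is what is known to tie translation of both proteins to eIF2 phosphorylation. An upstream frame that overlaps the coding sequence was present in the leading coding transcript of 3 of the 10 genes (ATF4, ATF5 and DDIT3), against 17.9% of 12918 protein-coding genes. Any upstream ATG was present in 6 of the 10, against 50.2%. Protein levels, which such frames set, were not measured.

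ATF4 and C/EBP factors bind a composite element whose core reads TGATGNAA. It was searched on both strands of RefSeq promoter windows (GRCh38.p14, from 250 bases before to 50 after each start), which were available for 9 of the 10 genes. The motif was in ASNS and CEBPG, 2 of 9, and in 4.46% of all 27305 genes with a window. Among other ATF4 target genes, described next, 14 of 35 held it (40%). The sites of ASNS and CEBPG and of 6 of those genes are shown because ASNS, the gene of the 10 with the largest fold change, can be read there beside others with the same core. Each is 20 bases, 5′ to 3′ in the direction of the motif, with the motif in capitals.
ASNS: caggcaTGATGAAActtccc
CEBPG: ggcgtcTGATGCAAcctgcc
CHAC1: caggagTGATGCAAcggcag
JDP2: cggggcTGATGCAAcccgtc
SLC1A5: agtggcTGATGCAAgctgtc
GARS: ggagcaTGATGAAAtcgccg
IARS: cggaggTGATGCAAcgcgct
TARS: accagcTGATGCAAtcgaaa
RefSeq lists the last 3 as GARS1, IARS1 and TARS1. ASNS and GARS share the form TGATGAAA, and the other 6 carry TGATGCAA. The ASNS stretch lies at chr7:97872463-97872482 on the minus strand, where the motif begins 68 bases before the start and reads along the gene. The CEBPG stretch lies at chr19:33374065-33374084 on the plus strand, where the motif begins 42 bases before the start. The CHAC1 stretch, at chr15:40953256-40953275, reads against the direction of its gene, as do those of GARS, IARS and TARS. In TARS the motif begins 2 bases after the start. A match is a description of the letters and not a measured binding site, and its absence from a window says nothing about binding elsewhere.

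Further genes known as ATF4 targets were lower in the knockout for the most part. Among them are genes for amino acid transporters, aminoacyl-tRNA synthetases and enzymes of serine, proline and one-carbon metabolism. Others, such as VEGFA, STC2 and DDIT4, belong to none of these classes. The list overlaps genes whose change was known beforehand, so it is not independent support. Of 43 listed, 39 were measured well enough to test, and 37 of these had a negative log2 fold change, with a median of -0.51 against 0.002 for all genes. In 32 of the 39 both knockout libraries lay below both parental libraries, against 22.7% of all genes. Past the threshold over all genes (edgeR) 3 fell and 0 rose, and 26 had an unadjusted p under 0.05, against 14.3% of all genes. DESeq2 called 13 and limma voom 3, all lower, against 1.49% and 0.498% of all genes called lower by these tools. The remaining 4 genes (NUPR1, GDF15, FGF21 and ADM2) had at most 0.284 CPM in any library.

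The 3 that fell were SLC7A11, SHMT2 and PSAT1. SLC7A11, the cystine-glutamate exchanger, had 42.7 and 48.0 CPM in the knockout and 117.2 and 223.6 CPM in parental cells, with a log2 fold change of -1.91 (SE 0.27, edgeR adjusted p = 0.0184). PSAT1, an aminotransferase of serine synthesis, had 146.7 and 164.8 CPM in the knockout and 263.0 and 400.6 CPM in parental cells, with a log2 fold change of -1.09 (SE 0.19, edgeR adjusted p = 0.0458). SHMT2, the mitochondrial serine hydroxymethyltransferase, had 95.4 and 96.0 CPM in the knockout and 156.0 and 192.4 CPM in parental cells, with a log2 fold change of -0.86 (SE 0.14, edgeR adjusted p = 0.0317). In all 3 the knockout replicates lay close together. PSAT1 and SHMT2 did not pass with the length offset, SHMT2 also without knockout replicate 1 or 2, and PSAT1 also with library size alone. The most abundant of the list, the synthetase genes IARS and EPRS, did not pass: IARS had 709.6 and 686.7 CPM in the knockout and 812.1 and 912.1 CPM in parental cells. EPRS had 473.1 and 466.0 CPM in the knockout and 487.6 and 485.7 CPM in parental cells, a log2 fold change of -0.05 (SE 0.10).

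The gap between the parental replicates ran through the same list. Parental replicate 2 was above replicate 1 in 34 of 39 genes (87.2%), against 50.7% of all genes, and at least 1.5-fold above in 14. The widest was CHAC1, a glutathione-degrading enzyme gene chosen after its values were seen, with 1.23 and 1.54 CPM in the knockout and 2.78 and 18.7 CPM in parental cells. Without parental replicate 2 the list still had 35 of 39 negative log2 fold changes, with a median of -0.33, and edgeR called 12 lower and 1 higher, in a fit that called 4.94% of all genes lower. Without parental replicate 1 the median was -0.68 and 30 were called lower, in a fit that called 5.7% of all genes lower. Without knockout replicate 1 or 2 the calls were 8 and 9, all lower, against 0.645% and 0.675% of all genes. The length offset left 1, against 0.276% of all genes. The list was lower in the knockout with either parental library left out, by a smaller amount without parental replicate 2.

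Genes of the list were also split by the promoter motif. The 13 tested with a motif all had negative log2 fold changes, with a median of -0.37. The 19 with a window but no motif had 17 negative values and a median of -0.51. The remaining 7 tested, SLC7A11 and SHMT2 among them, had no window and could not be classed. All 7 were negative, with a median of -0.66. The differences between these sets were not tested.

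**Figure D4:**
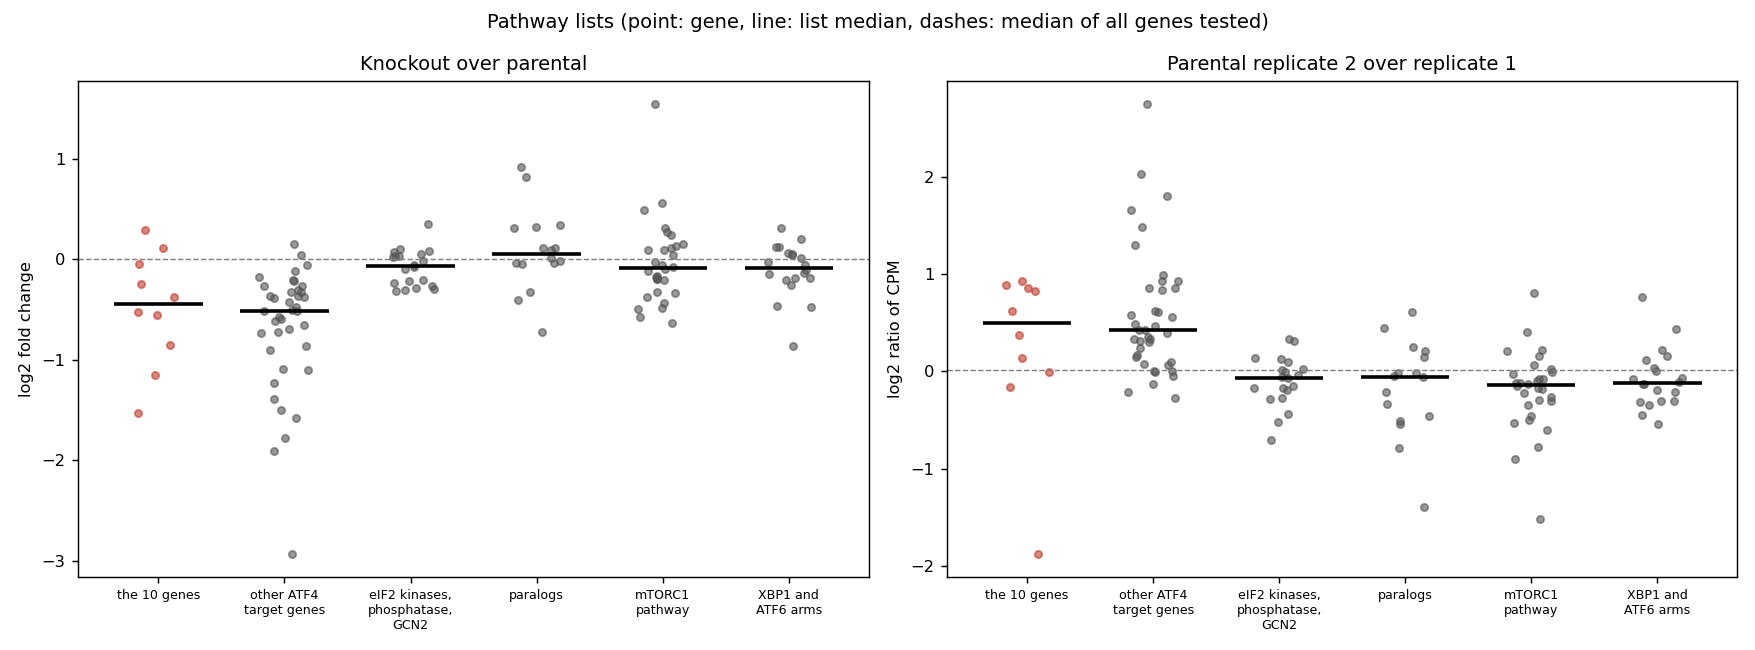
Left, log2 fold change (knockout over parental) of the 10 genes and of the tested genes of 5 related lists; right, log2 ratio of CPM of parental replicate 2 over parental replicate 1 for the same genes. Points are genes, thick lines list medians and dashes the median of all genes tested; in both panels the 10 genes and the other ATF4 target genes stand off the dashes, with medians of -0.45 and -0.51 on the left, while the other lists lie near them.

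Regulators around the pathway were looked at next. Of 20 genes for the other eIF2 kinases, eIF2 and eIF2B subunits, eIF2 phosphatase subunits and partners of GCN2, 0 passed (edgeR), 2 had an unadjusted p under 0.05, against 14.3% of all genes, and DESeq2 and limma voom called 0. Both knockout libraries lay below both parental libraries in 8 of the 20 and above in 0, against 22.7% and 23.5% of all genes. Their median log2 fold change was -0.07, and it was 0.03 with library size alone, which moved the median of all genes to 0.095. EIF2S3, the gamma subunit of eIF2, had 414.6 and 421.8 CPM in the knockout and 489.4 and 535.0 CPM in parental cells. PPP1CC, a catalytic subunit of protein phosphatase 1, had 347.4 and 344.9 CPM in the knockout and 359.9 and 298.7 CPM in parental cells, so its groups overlap.

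Among paralogs of the 10 genes, 16 of 18 could be tested, with a median of 0.05. Both knockout libraries lay above both parental libraries in 6 and below in 3, against 23.5% and 22.7% of all genes. An unadjusted p under 0.05 (edgeR) was found in 4, against 14.3% of all genes. Past the threshold 1 rose and 0 fell (edgeR), against 0.33% and 0.503% of all genes, and DESeq2 and limma voom gave the same counts. The gene that rose was SESN3, a sestrin like SESN2. It had 215.6 and 209.4 CPM in the knockout and 111.5 and 129.1 CPM in parental cells, a log2 fold change of 0.82 (SE 0.13, edgeR adjusted p = 0.0275). The groups do not overlap, and the replicates of each lie within 1.5-fold. The call was lost without knockout replicate 1 and with the length offset, with log2 fold changes of 0.80 and 0.85. EIF4EBP2, the paralog of EIF4EBP1, had 255.6 and 229.8 CPM in the knockout and 344.5 and 297.0 CPM in parental cells, a log2 fold change of -0.40 (SE 0.13) that did not pass.

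Of 30 genes of the mTORC1 pathway, on which SESN2 acts, 0 passed (edgeR) and limma voom called 0. DESeq2 called 1, as lower, against 1.49% of all genes called lower. Both knockout libraries lay below both parental libraries in 12 of the 30 and above in 8, against 22.7% and 23.5% of all genes. With edgeR 5 of the 30 had an unadjusted p under 0.05, a share near the 14.3% of all genes. Their median was -0.09, or 0.008 with library size alone, against 0.095 for all genes there. MTOR had 166.0 and 170.5 CPM in the knockout and 182.4 and 172.8 CPM in parental cells, a narrow gap with a log2 fold change of -0.08 (SE 0.12). EIF4G1, a scaffold of the cap-binding complex, had 520.7 and 412.8 CPM in the knockout and 635.7 and 420.0 CPM in parental cells, with replicate 1 higher in both groups.

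The XBP1 and ATF6 arms of the unfolded protein response, which do not need ATF4, gave 0 calls among 20 genes with edgeR, DESeq2 and limma voom, and 3 genes had an unadjusted p under 0.05, a share near the 14.3% of all genes. Their median was -0.08, or 0.01 with library size alone, against 0.095 for all genes there. The chaperone gene HSPA5 (BiP) had 391.9 and 386.0 CPM in the knockout and 374.6 and 301.4 CPM in parental cells. HSP90B1, another chaperone of the endoplasmic reticulum, had 709.0 and 724.1 CPM in the knockout and 675.3 and 642.9 CPM in parental cells. Both lay slightly higher in the knockout and did not pass. Of the 20 genes, though, 12 had a negative log2 fold change, and values ran from -0.86 to 0.31. Both knockout libraries lay below both parental libraries in 5 of the 20 and above in 4, against 22.7% and 23.5% of all genes.

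Profiles over the 4 libraries were compared with that of ASNS, by Euclidean distance of centred log2(CPM + 1) among 5862 abundant protein-coding genes. The 5 nearest were ALDH1L2 (0.342), SLC7A11 (0.409), SESN2 (0.414), MT-ATP8 (0.437) and MTRNR2L12 (0.447). ALDH1L2, a mitochondrial folate enzyme gene, had 69.3 and 77.2 CPM in the knockout and 123.0 and 220.2 CPM in parental cells. MT-ATP8 overlaps MT-ATP6 on the mitochondrial genome, and mitochondrial mRNA as a whole took 6.86 and 6.14% of the reads in the knockout and 9.97 and 10.4% in parental cells. ATF4 ranked 140, at a distance of 1.07. No shared function or control follows from likeness over 4 libraries.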

How the data were processed

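Total RNA of 2 knockout and 2 parental HEK293 libraries was analysed from transcript tables. The authors deposited estimated counts, TPM and effective length per transcript, per the file headers. Salmon 1.6, STAR 2.5.3a, cutadapt 1.6 and edgeR 3.24.3 are among the tools listed, with build hg38, per the submitters' processing notes. Which tool made which value, and with which annotation and strand option, is not given in the sources used here. Libraries were prepared with the Ovation SoLo kit, per the labels. Its source field names the knockout sample as wildtype, against its title and genotype, which were followed.

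Transcripts were joined to GENCODE v29 (684 of 198002 did not match), and the deposited estimated counts were added up per gene, then rounded. edgeR 4.0.16 in R 4.3.3 was used for the main tests (filterByExpr, TMM factors, quasi-likelihood F test, Benjamini-Hochberg adjusted p under 0.05). The SE was taken as the log2 fold change over the root of F. Usage was tested with diffSpliceDGE over transcripts with at least 10 reads and 5% of their gene in 2 libraries. The steps were tested on simulated data. Salmon splits reads among similar transcripts, an error the tests do not see.

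Alternatives were DESeq2 1.42.0, limma 3.58.1 (voom), RLE factors, library size alone, no filter, a length offset, a replicate block, each library left out, and 2 TPM scales added after seeing the data; for usage, a 10% share, 30 reads and an F test. The genes and lists were chosen with earlier results of these data known. Genes named are the 10, their transcripts with at least 10% of a gene's TPM in any library, per list up to 6 called genes and the 2 most abundant, and the 5 protein-coding genes nearest to ASNS with an average log2 CPM of at least 5.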

Additional observations from a re-analysis of the deposited data

How the results depend on the processing

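The count of 154 changed genes became 463 with DESeq2, 831 with no filter, 84 with the length offset and 200 to 2265 with a library left out. The 4 calls among related lists became 15, 20, 1 and 8 to 46 in the same order. Without a library, the lone sample of its group is assumed to vary like the rest. The median of the 10 genes ranged from -0.68 to -0.22 with a library left out and was -0.014 in deposited TPM. With limma voom, RLE factors and library size alone these counts stayed within 1.5 times and the median moved by less than the replicate spread. The 65 genes with changed usage became 21 with a 10% share, 115 with the F test and 0 to 88 with a library left out (0 without either knockout library, 2 without parental replicate 2), and the 10 genes gave 0 throughout. IARS, EIF2S3 and HSPA5 passed without parental replicate 1, EIF4EBP2 and EIF4G1 without parental replicate 2, and ALDH1L2 and MTRNR2L12 with any library left out.

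No label says whether same-numbered libraries were handled together. Deviations of same-numbered libraries correlated at 0.282 over 10605 genes, in 2 pairs. With the replicate block, 1656 genes were called, 34 in the related lists and 0 for usage.

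Signs turned for EIF4G1 (0.15 without parental replicate 1, -0.45 without replicate 2), and PPP1CC (0.21 and -0.060), and the cause was not tested. EPRS and MTOR were at 0.041 and 0.015 with library size alone, which moved the median of all genes from 0.002 to 0.095, so both stayed below that median. DDIT3, at 41.7 to 65.7 reads per library, and ATF5, at 29.7 to 154, had the fewest reads in a library of the 10 genes.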
